A study of Homo sapiens with 6 samples.

Results

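The enzymes that make, salvage and break down pyrimidine nucleotides were followed in IMR90 cells expressing ARID1B. They were 39 genes, of 57232 in the table, listed by name for their place in the pathway. The rule used no measured value, although the list was drawn up with earlier results of these data known. By branch they were 5 enzymes of de novo synthesis, 9 of deoxynucleotide synthesis and salvage, 13 of ribonucleoside salvage and phosphorylation, and 12 of breakdown. IMR90 is an established line of normal human fetal lung fibroblasts, and ARID1B is a subunit of the SWI/SNF chromatin remodelling complex. RNA was sequenced from 3 libraries of IMR90 cells infected with ARID1B cDNA and 3 libraries of IMR90 cells infected with the empty vector, which carried no ARID1B insert. Both groups were at passage 13, received 0.8 ug puromycin up to day 4 to select cells with the integrated vector, and were harvested 6 days after infection. The cDNA was expressed from a vector in a single cell line, so the comparison is one of added ARID1B and not of its natural range.

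De novo synthesis builds the pyrimidine ring from glutamine, bicarbonate and aspartate and ends in UMP, from which UTP and CTP are made. Ribonucleotide reductase and thymidylate synthase turn these into the dCTP and dTTP that DNA replication consumes, and RRM2, TYMS and TK1 are known for high expression in S phase. Salvage kinases recover nucleosides from outside the cell or from RNA and DNA turnover, while nucleotidases, phosphorylases and the reductive catabolic enzymes return nucleotides to bases and small acids.

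The values were FPKM, a fragment number corrected for gene length and library size. The totals recovered from the steps of the values were 70022493, 74121620 and 91924514 reads or fragments for ARID1B replicates 1, 2 and 3, and 80528432, 90548577 and 63386813 for vector replicates 1, 2 and 3. ARID1B itself (ENSG00000049618) was at 32.5, 21.0 and 28.3 FPKM in the ARID1B libraries and at 2.29, 1.31 and 2.05 FPKM in the vector libraries, with cDNA and endogenous transcript not separated, and it passed the test (log2 change 3.29, 95% interval 2.79 to 3.79, limma with Benjamini-Hochberg adjustment, adjusted p = 0.0255). Vector replicate 2 stood apart: the first principal component, with 63.8% of the variance, placed it at -48.49 and the other 5 libraries between -3.626 and 19.96. In each group replicate 3 was close to a weighted mean of the other two, with a weight on replicate 1 of 69.3% for ARID1B and 81.9% for the vector. The study calls the libraries biological replicates and the tests treat them so, and whether the third libraries are independent samples was not tested. The fibroblast markers COL1A1, COL1A2, COL3A1, VIM, THY1, PDGFRB, DCN and LUM summed to between 1900 and 2643 FPKM with ARID1B and between 1939 and 2594 FPKM with the vector. The epithelial markers summed to at most 0.206 FPKM with ARID1B and 0.256 FPKM with the vector, with NKX2-1, SFTPC and KRT5 at 0 in all 6 libraries. Of the endothelial markers 3 of 4 were found, with CDH5 at 0 and sums between 0.103 and 0.151 FPKM with ARID1B and between 0.0811 and 0.352 FPKM with the vector. The blood markers summed to at most 0.0632 FPKM with ARID1B and 0.0542 FPKM with the vector, with CD3E at 0.

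None of the pyrimidine enzymes passed the test for a change with ARID1B. Of the 39 members 30 averaged 1 FPKM or more across all libraries and were tested, and 0 of these 30 passed an adjusted p of 0.05 in either direction (limma on log2(FPKM + 1), Benjamini-Hochberg over 10416 genes), where 0.0288% of all genes tested passed, 3 genes that were all higher with ARID1B. At an unadjusted p under 0.05 the count was again 0 of 30 members, beside 10.6% of all genes tested (4.64% higher and 5.94% lower with ARID1B), and a voom fit to reads recovered from the FPKM also called 0 members. The smallest unadjusted p among the members was 0.065, for NT5C, and their adjusted p-values ran between 0.498 and 0.994. The members' values in the 3 libraries of each group lay apart without overlap in 3 of 30 cases (NT5C2 higher with ARID1B, CAD and NT5C lower), or 10.0%, beside 20.5% of all genes tested (9.44% higher and 11.1% lower). The log2 change was positive in 10 and negative in 20 members, with a median of -0.06, beside a median of -0.02 over all genes tested. This balance depended on which library was left out, and it changed after a correction for GC content and gene length. Of the 30 members, 17 were positive without vector replicate 2 (median 0.03) and 15 without ARID1B replicate 2 (median 0.01). By contrast, 8 were positive without ARID1B replicate 1 (median -0.11) and 10 without vector replicate 1 (median -0.09). The median was -0.07 without ARID1B replicate 3 and -0.10 without vector replicate 3. After the correction 16 were positive (median 0.02).

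A p that misses the threshold does not show that the enzymes stayed level, and the intervals say how far each could have moved. On that scale the 95% interval of the change lay within 2-fold in either direction for 23 of the 30 members, beside 87.3% of all genes tested. The widest intervals belonged to the enzymes whose libraries differed most within each group, as the plot of changes shows.

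**Figure D1:**
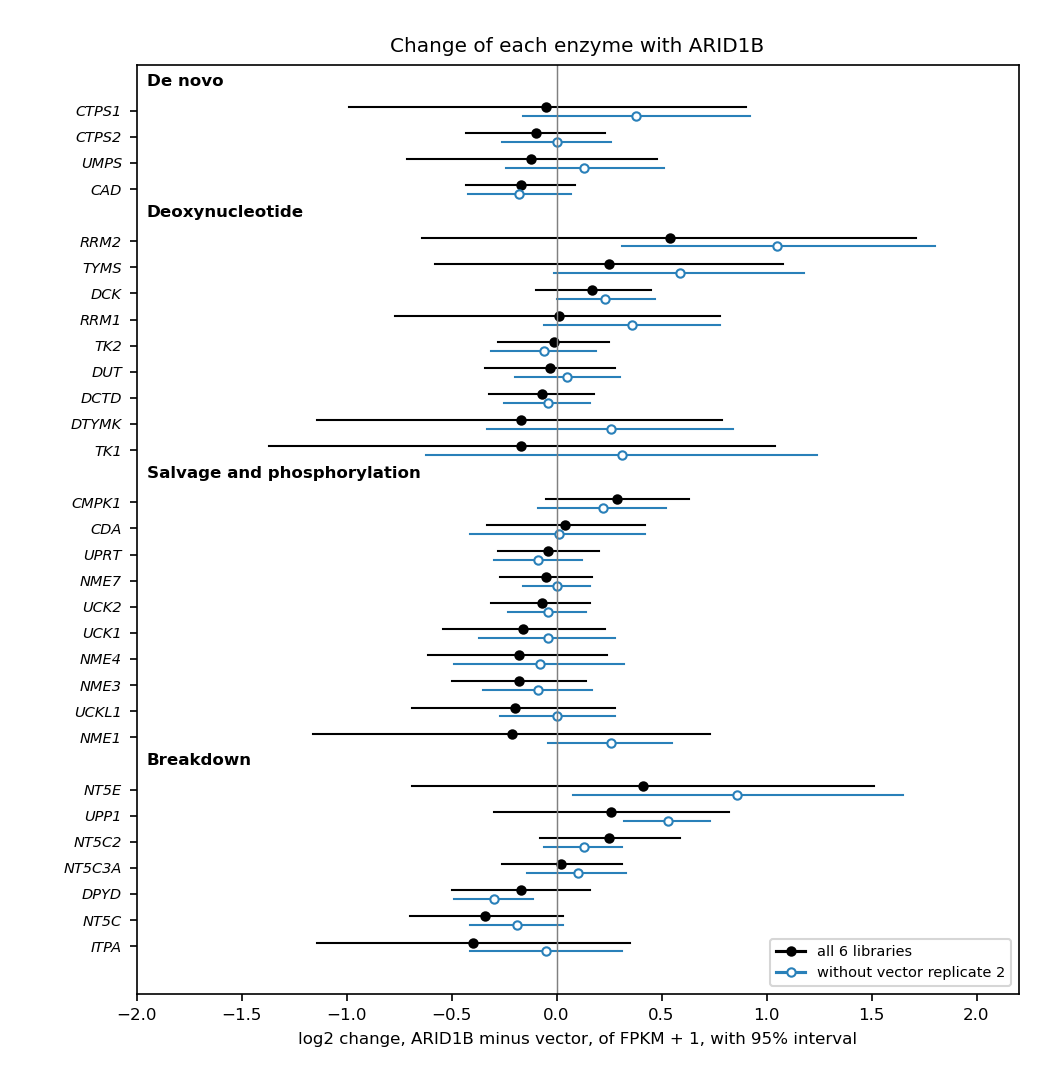
The log2 change of FPKM + 1, ARID1B minus vector, is plotted for the 30 enzymes tested, by branch, with 95% intervals from limma, for all 6 libraries (filled) and without vector replicate 2 (open). All 30 intervals over the 6 libraries cross 0, and RRM2, UPP1, NT5E and DPYD are the 4 enzymes whose intervals leave 0 without vector replicate 2.

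In the de novo branch all 4 enzymes tested had negative log2 changes that did not pass the test, with a median of -0.11. CAD (ENSG00000084774), the fused carbamoyl phosphate synthetase, aspartate transcarbamylase and dihydroorotase that starts the pathway, was at 5.71, 4.56 and 5.24 FPKM with ARID1B and at 5.99, 5.86 and 5.92 FPKM with the vector. Its 3 ARID1B libraries all lay below the 3 vector libraries, which were within a few percent of each other. The means were 5.17 ± 0.582 FPKM with ARID1B and 5.93 ± 0.0675 FPKM with the vector (SD, n = 3 each), and the log2 change of -0.17 had a 95% interval of -0.43 to 0.09 (limma, adjusted p = 0.631). CAD was the only member of this branch for which vector replicate 2 resembled the other vector libraries closely, and without that library its log2 change was -0.18.

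DHODH (ENSG00000102967), the mitochondrial enzyme that oxidises dihydroorotate to orotate, was at 0.647, 0.438 and 0.618 FPKM with ARID1B and at 0.435, 0.999 and 0.459 FPKM with the vector, under the minimum for the test, from 207 to 643 reads a library. UMPS, which converts orotate to UMP, was at 3.94, 2.62 and 3.75 FPKM with ARID1B and at 2.84, 5.73 and 3.18 FPKM with the vector. Both genes were highest in vector replicate 2 and their groups overlapped. The log2 change of UMPS was -0.12 (95% interval -0.71 to 0.48, limma, adjusted p = 0.868).

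CTPS1 and CTPS2, the CTP synthetases that aminate UTP, differed from each other in how far their libraries spread. CTPS1 was at 9.76, 5.94 and 8.42 FPKM with ARID1B and at 4.99, 15.6 and 6.79 FPKM with the vector, so that the vector libraries alone spanned a fold of 3.13 and enclosed all ARID1B values. CTPS2 was at 3.87, 3.05 and 3.89 FPKM with ARID1B and at 3.61, 4.64 and 3.57 FPKM with the vector. The log2 changes were -0.05 for CTPS1 (95% interval -0.99 to 0.90, limma, adjusted p = 0.971) and -0.10 for CTPS2 (-0.43 to 0.23, adjusted p = 0.801). The median of the branch had the opposite sign without vector replicate 2 (0.07) and without ARID1B replicate 2 (0.01). With any other single library left out it was between -0.22 and -0.16.

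**Figure D2:**
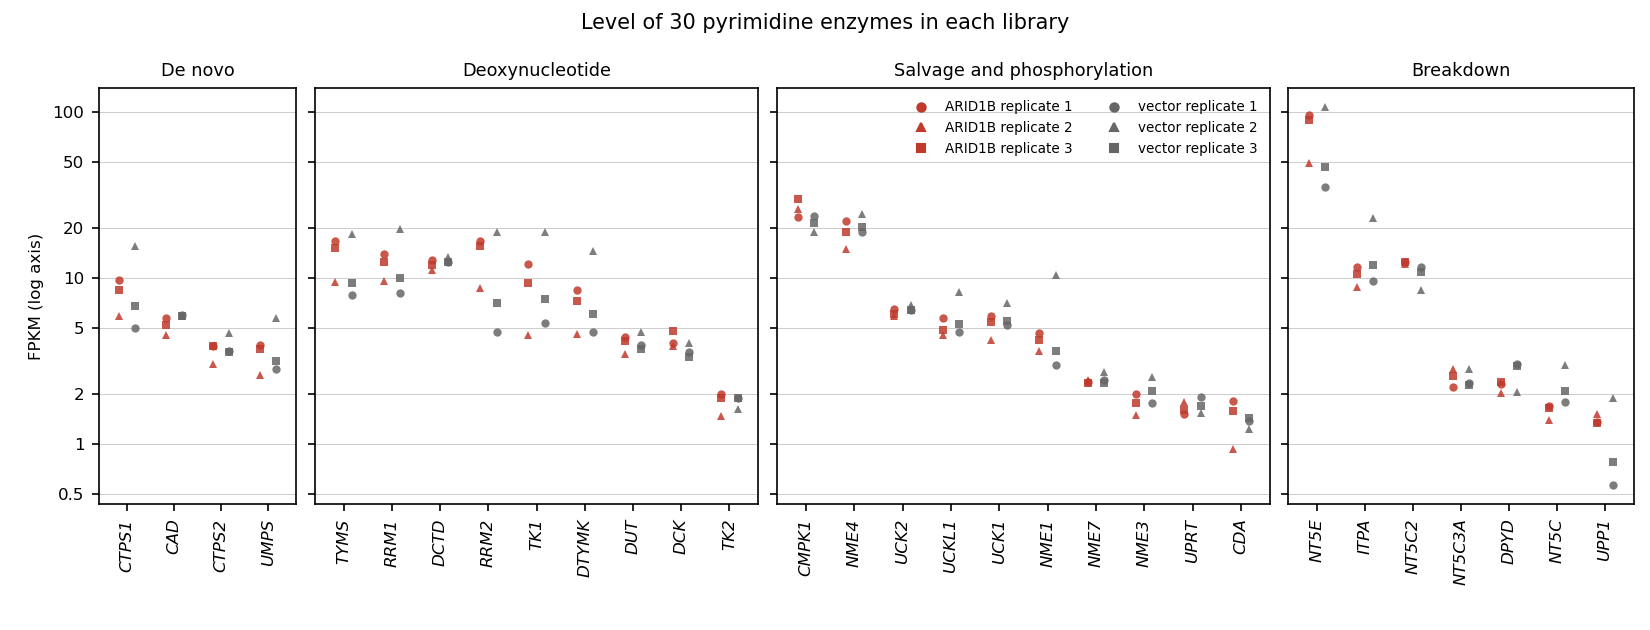
FPKM on a log axis in each of the 6 libraries is plotted for the 30 enzymes tested, by branch and in order of mean level, with the 3 ARID1B libraries to the left of the 3 vector libraries for each gene. Vector replicate 2 (grey triangles) is the highest of the 6 libraries for 22 of the 30 enzymes, and ARID1B replicate 2 (red triangles) lies below ARID1B replicate 1 for most of the same genes.

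In the deoxynucleotide branch all 9 enzymes were tested, 4 had positive and 5 negative log2 changes, and the median was -0.01. Without vector replicate 2, 7 of the 9 were positive with a median of 0.26, and without ARID1B replicate 2, 8 of the 9 with a median of 0.14. Without ARID1B replicate 1, 3 of the 9 were positive with a median of -0.09, and without vector replicate 1, 4 of the 9 with a median of -0.06. The median was -0.09 without vector replicate 3 and -0.04 without ARID1B replicate 3. After the GC and length correction 6 of the 9 were positive with a median of 0.08. RRM2, TYMS, TK1 and DTYMK differed by more than 1.5-fold between replicates 1 and 2 in both groups, and the sequences before their transcription start sites are shown because they varied together in this way. The sequences are the 250 bases upstream of the start in the RefSeq annotation of GRCh38.p14, on the strand of the gene, at chr2:10122489-10122738 (plus strand) for RRM2, chr18:657403-657652 (plus strand) for TYMS, chr17:78187205-78187454 (minus strand) for TK1 and chr2:241686816-241687065 (minus strand) for DTYMK. The FPKM table itself used hg19. Capitals mark CCAAT, the motif written for NF-Y, and TTTNNCGC, a motif written for E2F, each searched on both strands.
RRM2: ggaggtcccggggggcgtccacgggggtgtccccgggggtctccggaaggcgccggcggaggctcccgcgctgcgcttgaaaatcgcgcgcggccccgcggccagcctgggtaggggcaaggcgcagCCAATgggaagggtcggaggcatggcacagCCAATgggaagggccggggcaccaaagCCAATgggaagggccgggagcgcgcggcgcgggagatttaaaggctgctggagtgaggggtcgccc
TYMS: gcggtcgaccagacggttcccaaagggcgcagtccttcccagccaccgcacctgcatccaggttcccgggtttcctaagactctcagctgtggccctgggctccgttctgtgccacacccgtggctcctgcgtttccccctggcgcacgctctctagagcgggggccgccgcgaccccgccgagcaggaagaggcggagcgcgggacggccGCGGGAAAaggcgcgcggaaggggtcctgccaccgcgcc
TK1: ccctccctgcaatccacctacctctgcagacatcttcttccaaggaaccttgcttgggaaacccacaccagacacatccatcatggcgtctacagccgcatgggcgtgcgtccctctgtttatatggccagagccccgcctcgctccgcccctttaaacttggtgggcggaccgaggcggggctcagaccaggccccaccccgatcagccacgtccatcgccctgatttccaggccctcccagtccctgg
DTYMK: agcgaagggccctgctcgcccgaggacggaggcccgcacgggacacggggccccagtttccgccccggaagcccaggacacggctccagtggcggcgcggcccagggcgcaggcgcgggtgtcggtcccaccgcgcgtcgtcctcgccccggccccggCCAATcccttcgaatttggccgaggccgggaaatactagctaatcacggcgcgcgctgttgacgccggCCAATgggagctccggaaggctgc
RRM2 held 3 CCAAT matches, DTYMK held 2 and TYMS held 1 TTTNNCGC match, read on the opposite strand, while no match to either motif was present in the TK1 window. With the start base counted as 0, the CCAAT matches began at -123, -93 and -66 in RRM2 and at -92 and -24 in DTYMK, and the TYMS match began at -39. Over windows of 300 bases (250 before and 50 after the start), 14 of 38 members with a RefSeq promoter held CCAAT (36.8%), beside 34.6% of 35116 promoters, and 6 of 38 held TTTNNCGC (15.8%), beside 6.89%. The 6 members with TTTNNCGC were CDA, DCK, NME4, NME6, TYMS and UPB1. A match describes letters only and is not evidence of binding, and DPYS was not matched.

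RRM1 and RRM2 encode the large and small subunits of ribonucleotide reductase, which reduces ribonucleoside diphosphates to deoxyribonucleotides. RRM2 (ENSG00000171848) was at 16.7, 8.66 and 15.5 FPKM with ARID1B and at 4.75, 19.0 and 7.07 FPKM with the vector. The groups overlapped through vector replicate 2, the highest of the 6, while vector replicates 1 and 3 lay below every ARID1B library. The means were 13.6 ± 4.34 FPKM with ARID1B and 10.3 ± 7.62 FPKM with the vector (SD, n = 3 each), and the log2 change was 0.54 (95% interval -0.64 to 1.71, limma, adjusted p = 0.724), the largest positive value among the members. Without vector replicate 2 it was 1.05 with an adjusted p of 0.116 (limma), which did not pass either, and without vector replicate 1 it was 0.16.

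RRM1 was at 13.9, 9.65 and 12.4 FPKM with ARID1B and at 8.12, 19.8 and 10.0 FPKM with the vector, with overlapping groups and a log2 change of 0.01 (95% interval -0.77 to 0.78, limma, adjusted p = 0.994). RRM2B, the alternative small subunit known as a p53 target, is not a member and was looked at after its values had been seen. It was at 12.4, 12.5 and 14.4 FPKM with ARID1B and at 12.8, 6.26 and 10.8 FPKM with the vector (log2 change 0.41, limma, adjusted p = 0.607). It was lowest in the library where RRM2 was highest, and the ratio of RRM2 to RRM2B in FPKM was 1.35, 0.693 and 1.08 with ARID1B and 0.370, 3.03 and 0.657 with the vector.

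TYMS (ENSG00000176890), thymidylate synthase, which methylates dUMP to dTMP, was at 16.7, 9.45 and 15.1 FPKM with ARID1B and at 7.89, 18.3 and 9.33 FPKM with the vector. As for RRM2, vector replicate 2 was highest and the other vector libraries were lowest. TYMS had a log2 change of 0.25 (95% interval -0.58 to 1.08, limma, adjusted p = 0.803), which was 0.59 without vector replicate 2 and 0.03 without vector replicate 1. TYMS overlaps ENOSF1 on the opposite strand and the strand setting of the counting is not given in the sources used here. From that same counting ENOSF1 was at no more than 0.559 FPKM with ARID1B and 0.507 FPKM with the vector. Whether reads of ENOSF1 entered the TYMS values was not tested.

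Thymidine kinase TK1, the cytosolic enzyme that salvages thymidine, and thymidylate kinase DTYMK, which phosphorylates dTMP to dTDP, spread in the same way. TK1 was at 12.1, 4.51 and 9.35 FPKM with ARID1B and at 5.36, 18.8 and 7.43 FPKM with the vector. DTYMK was at 8.41, 4.62 and 7.22 FPKM with ARID1B and at 4.71, 14.5 and 6.06 FPKM with the vector. In both genes the ARID1B values lay inside or just below the range of the vector values. The log2 changes were -0.17 for TK1 (95% interval -1.37 to 1.04, limma, adjusted p = 0.908) and -0.17 for DTYMK (-1.14 to 0.79, adjusted p = 0.880).

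The remaining enzymes of the branch varied far less. DUT, the dUTPase that keeps uracil out of DNA, was at 4.42, 3.48 and 4.17 FPKM with ARID1B and at 3.92, 4.74 and 3.75 FPKM with the vector. DCTD, which deaminates dCMP to dUMP, was at 12.8, 11.2 and 12.0 FPKM with ARID1B and at 12.4, 13.3 and 12.4 FPKM with the vector. Neither gene separated the groups, and the interval of DCTD (-0.32 to 0.18 around a log2 change of -0.07, limma, adjusted p = 0.805) left room for only small changes.

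DCK, the deoxycytidine kinase that salvages deoxycytidine and activates cytarabine and gemcitabine, was at 4.08, 3.91 and 4.77 FPKM with ARID1B and at 3.57, 4.04 and 3.35 FPKM with the vector. Only ARID1B replicate 2 lay below the highest vector library. DCK had a log2 change of 0.17 (95% interval -0.10 to 0.45, limma, adjusted p = 0.642). TK2, the mitochondrial thymidine kinase and the lowest member of the branch, was at 2.00, 1.48 and 1.88 FPKM with ARID1B and at 1.88, 1.63 and 1.89 FPKM with the vector, with a log2 change of -0.01 (adjusted p = 0.975).

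The spread within groups was therefore described for each enzyme by 2 ratios, that of ARID1B replicate 1 to replicate 2 and that of vector replicate 2 to replicate 1. The direction of both ratios follows the order already seen in these libraries, so the shares below are a description and not a test. For RRM2 the ratios were 1.93 within ARID1B and 3.99 within the vector. For TK1 they were 2.68 and 3.50 in the same order, for DTYMK 1.82 and 3.08, for NT5E 1.96 and 3.02, and for CTPS1 1.64 and 3.13. TYMS had 1.77 within ARID1B and 2.32 within the vector, and UMPS had 1.51 and 2.02. These 7 members, 4 of the 9 in the deoxynucleotide branch, 2 of the 4 in the de novo branch and 1 of the 7 in breakdown, were the only ones above 1.5-fold in both groups. They were 23.3% of the 30 members, beside 6.28% of all genes tested. Vector replicate 2 was the highest of the 6 libraries for 73.3% of the members, beside 39.5% of all genes tested.

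Genes that mark dividing cells spread along with them. Of 15 proliferation markers 14 were tested and 12 of these 14 (85.7%) were above 1.5-fold in both ratios. Their summed level over all 15 was 181, 114 and 168 FPKM with ARID1B and 97.3, 232 and 115 FPKM with the vector, the order of libraries seen for RRM2 except that ARID1B replicate 2 and vector replicate 3 were level. MKI67, which encodes the Ki-67 antigen, was at 9.73, 3.52 and 8.14 FPKM with ARID1B and at 2.83, 6.49 and 3.38 FPKM with the vector. Of the 14 markers 11 had a positive log2 change with a median of 0.16, and 0 passed the adjusted threshold of limma in either direction. At an unadjusted p under 0.05 there was 1 of 14, beside 10.6% of all genes tested. Without vector replicate 2 all 14 were positive with a median of 0.60, without ARID1B replicate 2, 13 with a median of 0.36, without ARID1B replicate 1, 8 with a median of 0.04, and without vector replicate 1, 6 with a median of -0.08. GC content moved with these ratios as well, at a Spearman's rho of 0.42 across 10195 genes for ARID1B replicate 1 over 2, 0.38 for vector replicate 2 over 1 and -0.55 for the change between ARID1B and vector, which was -0.27 without vector replicate 2. For transcript length the rho was -0.11 for ARID1B replicate 1 over 2, -0.48 for vector replicate 2 over 1 and 0.40 for the change between ARID1B and vector, which was 0.02 without vector replicate 2. Genes are not independent replicates. The part of dividing cells, GC content and length in the values of the enzymes was not tested. In bulk RNA a different share of dividing cells and a different amount of RNA per dividing cell cannot be told apart.

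**Figure D3:**
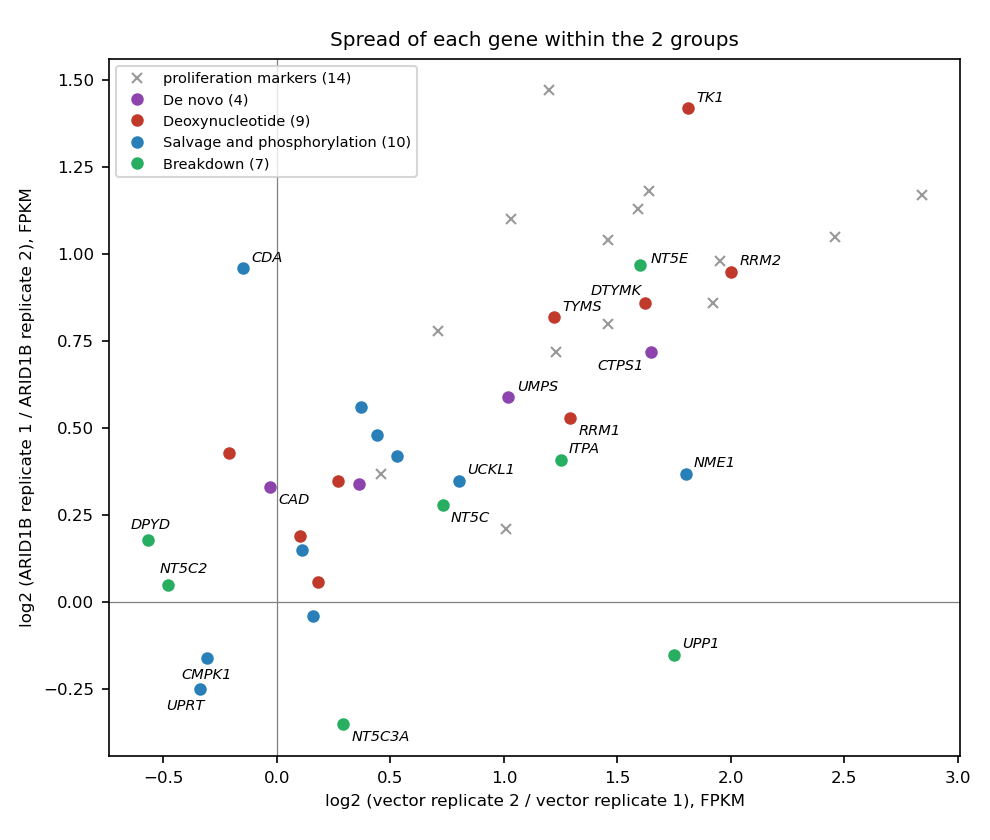
Each point is a gene, with the log2 ratio of vector replicate 2 to vector replicate 1 on the horizontal axis and the log2 ratio of ARID1B replicate 1 to ARID1B replicate 2 on the vertical axis, in FPKM, for the 30 enzymes tested (coloured by branch) and 14 proliferation markers (crosses). RRM2, TK1, DTYMK, TYMS, CTPS1, UMPS and NT5E lie at the upper right among the proliferation markers, while UPP1 and NME1 are spread mainly within the vector group.

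Among the salvage and phosphorylation enzymes 10 of 13 were tested, 2 had positive and 8 negative log2 changes, and the median was -0.12. It was -0.02 without vector replicate 2 (4 of 10 positive), -0.05 without ARID1B replicate 2 and 0.05 after the GC and length correction (6 of 10 positive). With any other single library left out the median was between -0.18 and -0.13. CMPK1, the UMP/CMP kinase that makes UDP and CDP, had the highest mean of this branch, at 23.3, 26.0 and 29.9 FPKM with ARID1B and 23.6, 19.0 and 21.4 FPKM with the vector. Its groups overlapped, since ARID1B replicate 1 lay just under vector replicate 1. The means were 26.4 ± 3.32 FPKM with ARID1B and 21.3 ± 2.25 FPKM with the vector (SD, n = 3 each), and the log2 change was 0.29 (95% interval -0.05 to 0.63, limma, adjusted p = 0.527). CMPK1 was lower in vector replicate 2 than in the other vector libraries, unlike most members.

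The uridine-cytidine kinases, which phosphorylate uridine and cytidine to UMP and CMP, showed no separation of the groups. UCK1 was at 5.92, 4.25 and 5.40 FPKM with ARID1B and at 5.21, 7.07 and 5.48 FPKM with the vector. UCK2 was the most even of them, at 6.53, 5.89 and 6.06 FPKM with ARID1B and at 6.38, 6.87 and 6.37 FPKM with the vector. UCKL1, a related protein, was at 5.76, 4.51 and 4.87 FPKM with ARID1B and at 4.74, 8.25 and 5.31 FPKM with the vector. The log2 changes were -0.16, -0.07 and -0.20 for UCK1, UCK2 and UCKL1, with adjusted p-values of 0.741, 0.795 and 0.738 (limma).

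CDA, the cytidine deaminase, had the lowest mean of the tested salvage enzymes, at 1.82, 0.937 and 1.58 FPKM with ARID1B and at 1.37, 1.23 and 1.44 FPKM with the vector. Its spread was wider with ARID1B, where replicate 2 was the lowest of all 6 libraries (log2 change 0.04, limma, adjusted p = 0.924). UPRT, the human homologue of uracil phosphoribosyltransferase, was at 1.51, 1.80 and 1.61 FPKM with ARID1B and at 1.93, 1.53 and 1.69 FPKM with the vector (log2 change -0.04, adjusted p = 0.894). It was highest in vector replicate 1, the library where RRM2 was lowest.

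The nucleoside diphosphate kinases of the NME family carry out the last step to the triphosphates. NME4, the mitochondrial member, was at 22.0, 14.9 and 18.8 FPKM with ARID1B and at 18.8, 24.3 and 20.2 FPKM with the vector, and NME7 was at 2.36, 2.42 and 2.33 FPKM with ARID1B and at 2.42, 2.70 and 2.34 FPKM with the vector. NME3 was at 1.99, 1.49 and 1.77 FPKM with ARID1B and at 1.76, 2.53 and 2.07 FPKM with the vector. Their log2 changes were -0.18, -0.05 and -0.18 for NME4, NME7 and NME3, with adjusted p-values of 0.732, 0.854 and 0.666 (limma). The interval of NME7, -0.27 to 0.17, was the narrowest among the members.

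NME1 and NME2 are neighbouring, near-identical genes that also share a read-through transcript, so their values are uncertain. NME1 was at 4.65, 3.61 and 4.21 FPKM with ARID1B and at 2.99, 10.4 and 3.65 FPKM with the vector (log2 change -0.21, 95% interval -1.16 to 0.73, limma, adjusted p = 0.844). The row named NME2 (ENSG00000011052) was listed at 0 in all 6 libraries. The gene names used here give that identifier to the read-through NME1-NME2 and give the identifier of the row named NME1-NME2 (ENSG00000243678) to NME2. The second row held 0.107, 0.158 and 0.103 FPKM with ARID1B and 0.0712, 0.220 and 0.165 FPKM with the vector, and no statement on NME2 is made from either.

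NME6, another NME family member, had a mean just under the minimum for the test, at 1.12, 0.729 and 1.0 FPKM with ARID1B and at 0.995, 1.13 and 0.989 FPKM with the vector. CMPK2, a mitochondrial UMP/CMP kinase known as an interferon-stimulated gene, was at 0.0217, 0.0392 and 0.0385 FPKM with ARID1B and at 0.0188, 0.00837 and 0.0259 FPKM with the vector, from 6 to 28 reads a library. CMPK2 was under the minimum for the test. In the fit with no filter on low values its adjusted p was 0.677 (limma), on a scale that understates changes at such levels.

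In the breakdown branch 7 of 12 enzymes were tested, 4 had positive and 3 negative log2 changes, and the median was 0.02, or between -0.04 and 0.10 as single libraries were left out. NT5E (ENSG00000135318), the cell surface nucleotidase CD73 that hydrolyses extracellular AMP and other nucleoside monophosphates, had the highest mean of all members, at 95.9, 49.0 and 89.7 FPKM with ARID1B and 35.4, 107.0 and 46.8 FPKM with the vector. Vector replicate 2 was again the highest library, and vector replicates 1 and 3 lay below every ARID1B library. The means were 78.2 ± 25.5 FPKM with ARID1B and 63.1 ± 38.5 FPKM with the vector (SD, n = 3 each), and the log2 change was 0.41 (95% interval -0.69 to 1.51, limma, adjusted p = 0.765). It was 0.86 without vector replicate 2 (adjusted p = 0.180) and 0.08 without vector replicate 1. NT5E alone made up 30.0%, 22.4% and 29.6% of the summed FPKM of the members with ARID1B, and 17.2%, 28.1% and 20.4% with the vector.

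The intracellular 5′-nucleotidases dephosphorylate nucleoside monophosphates. NT5C2, which prefers the purine monophosphates IMP and GMP, was at 12.5, 12.1 and 12.4 FPKM with ARID1B and at 11.7, 8.42 and 10.8 FPKM with the vector. All 3 ARID1B libraries lay above the vector libraries, and the 3 were close together. The log2 change was 0.25 (95% interval -0.08 to 0.59, limma, adjusted p = 0.577), and without vector replicate 2 it was 0.13.

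NT5C, the cytosolic deoxyribonucleotidase, was at 1.70, 1.40 and 1.64 FPKM with ARID1B and at 1.80, 2.99 and 2.08 FPKM with the vector. Its groups did not overlap, in the opposite direction to NT5C2, with ARID1B replicate 1 only just under vector replicate 1. The log2 change was -0.34 (95% interval -0.70 to 0.03, limma, adjusted p = 0.498), and it was -0.19 without vector replicate 2 and 0.01 after a correction for GC content and gene length. NT5C3A, the pyrimidine-specific nucleotidase of red cells, was at 2.21, 2.82 and 2.56 FPKM with ARID1B and at 2.32, 2.84 and 2.27 FPKM with the vector (log2 change 0.02, adjusted p = 0.953).

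**Figure D4:**
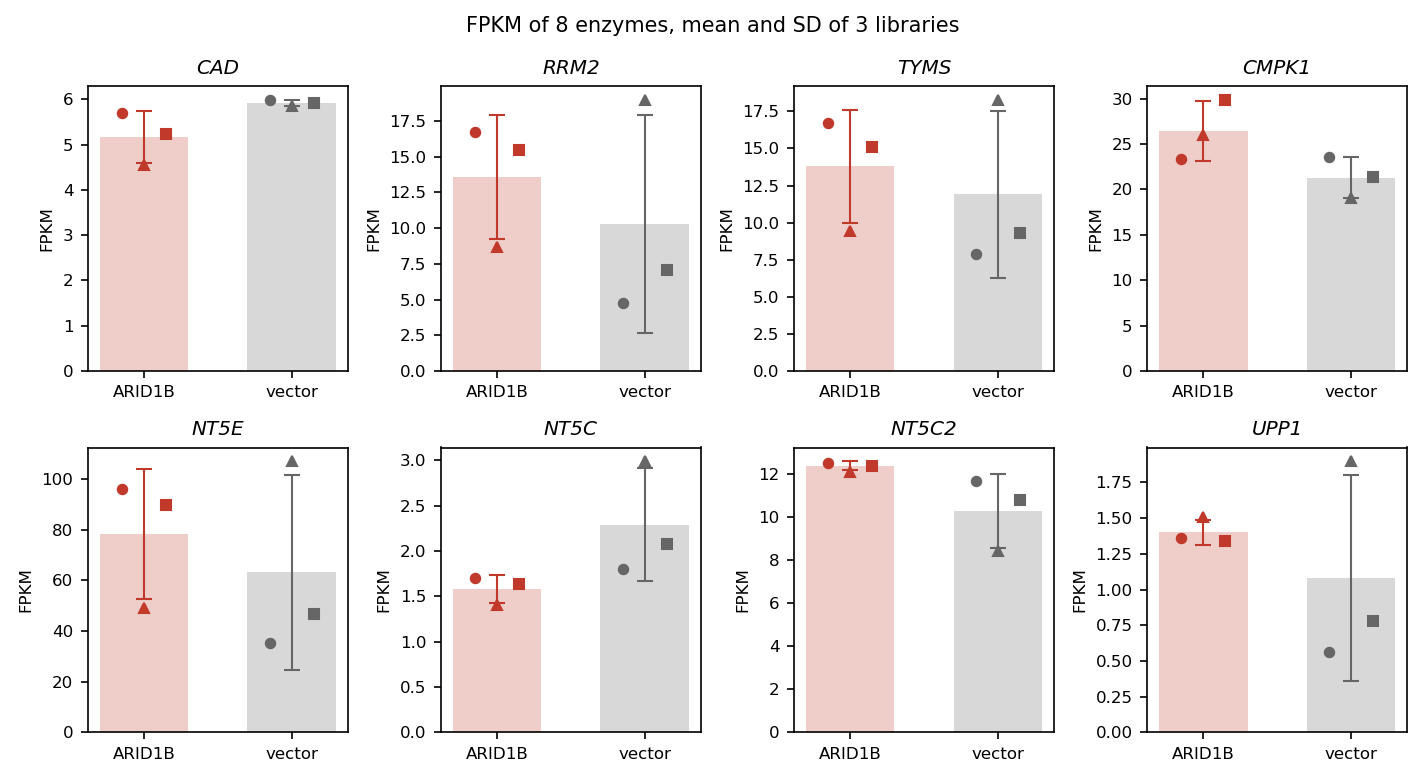
FPKM of CAD, RRM2, TYMS, CMPK1, NT5E, NT5C, NT5C2 and UPP1 is plotted with the mean (bar), SD (error bar) and each library (circle, replicate 1; triangle, replicate 2; square, replicate 3) for ARID1B on the left and vector on the right of each panel, with every axis starting at 0. CAD, NT5C and NT5C2 separate the groups without overlap and miss the threshold, while in RRM2, TYMS, NT5E and UPP1 vector replicate 2 lies above the ARID1B libraries and vector replicates 1 and 3 below them.

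UPP1 (ENSG00000183696), the uridine phosphorylase that releases uracil from uridine, was at 1.36, 1.51 and 1.34 FPKM with ARID1B and at 0.565, 1.90 and 0.778 FPKM with the vector. The ARID1B libraries were close together and lay between vector replicate 2 and the other two vector libraries. The log2 change was 0.26 (95% interval -0.30 to 0.82, limma, adjusted p = 0.719), and 0.08 without vector replicate 1. The scale of FPKM + 1 understates changes at such levels. Over all 6 libraries the log2 change was 0.51 with 0.1 added in place of 1, and 0.55 with voom, and neither passed. Without vector replicate 2, UPP1 was the only member past the threshold, with a log2 change of 0.53 (limma, adjusted p = 0.0433), so that 1 of 30 members was called, beside 3.11% of all genes tested in that comparison (1.2% higher and 1.91% lower with ARID1B). The vector group then held only replicate 1 and a replicate 3 close to it, and UPP1 averaged 0.671 FPKM there and 1.4 FPKM with ARID1B.

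DPYD, dihydropyrimidine dehydrogenase, the first and rate-limiting enzyme of uracil and thymine catabolism and the main route of 5-fluorouracil clearance, was at 2.31, 2.04 and 2.37 FPKM with ARID1B and at 3.04, 2.05 and 2.93 FPKM with the vector. Vector replicate 2 was level with the ARID1B libraries and the other vector libraries lay above them. The log2 change was -0.17 (95% interval -0.50 to 0.16, limma, adjusted p = 0.691), and it was -0.30 without vector replicate 2 (adjusted p = 0.0992) and -0.10 without vector replicate 1. After the GC and length correction it was -0.31 (limma, unadjusted p = 0.0108, adjusted p = 0.352). At an unadjusted p under 0.05 the comparison without vector replicate 2 gave 4 of 30 members, RRM2, NT5E and UPP1 higher with ARID1B and DPYD lower, beside 23.7% of all genes tested (10% higher and 13.7% lower). Without vector replicate 2 the groups lay apart without overlap in 9 members, RRM2, TYMS, DCK, UPP1, NT5E and NT5C2 higher with ARID1B and CAD, DPYD and NT5C lower, beside 42.7% of all genes tested (18.8% higher and 23.9% lower).

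TYMP, thymidine phosphorylase, was under the minimum for the test, at 0.126, 0.175 and 0.129 FPKM with ARID1B and at 0.248, 0.241 and 0.193 FPKM with the vector, from 57 to 141 reads a library. Its 3 ARID1B libraries all lay below the vector libraries. In the fit with no filter on low values its log2 change was -0.10 (limma, unadjusted p = 0.0176, adjusted p = 0.470), on a scale that understates changes at such levels. TYMP was the only member at an unadjusted p under 0.05 in that fit, for which the share over all genes is not given here.

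ITPA, a pyrophosphatase that removes inosine and xanthosine triphosphates and so is not specific to pyrimidines, was at 11.7, 8.78 and 10.6 FPKM with ARID1B and at 9.65, 22.9 and 11.9 FPKM with the vector (log2 change -0.40, 95% interval -1.14 to 0.35, limma, adjusted p = 0.684). This was the most negative value among the members, and it rested on vector replicate 2, without which it was -0.05. NT5M, the mitochondrial deoxyribonucleotidase, was at 0.113, 0.06 and 0.0814 FPKM with ARID1B and at 0.0904, 0.0625 and 0.118 FPKM with the vector.

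DPYS and UPB1, the catabolic steps after DPYD, were nearly silent in these fibroblasts, and so was UPP2. DPYS, dihydropyrimidinase, had a single read in ARID1B replicate 3 and none in the other libraries, and UPP2, the second uridine phosphorylase, had a single read in vector replicate 2. UPB1, beta-ureidopropionase, had 1 to 11 reads a library. These 3 genes were under the minimum for the test, and no statement on a difference is made from so few reads.

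Other genes of nucleotide handling were listed beside the members, and 16 of 28 were tested. Of these 8 had positive and 8 negative log2 changes, with a median of 0.00, and 0 passed the adjusted threshold of limma. At an unadjusted p under 0.05 there were 3 of 16 (2 higher and 1 lower with ARID1B). The share over all genes tested was 10.6% (4.64% higher and 5.94% lower). Without vector replicate 2, 12 were positive with a median of 0.09, and without ARID1B replicate 2, 11 with a median of 0.09. Without vector replicate 1, 7 were positive with a median of -0.10, and without ARID1B replicate 1, 8 with a median of -0.08. ENTPD7 was at 4.82, 5.6 and 4.97 FPKM with ARID1B and 3.48, 2.44 and 3.30 FPKM with the vector (log2 change 0.60, adjusted p = 0.301, limma). Without vector replicate 2 its log2 change was 0.48 (limma, adjusted p = 0.0511). ENTPD4 and ENTPD5 lay above the vector libraries in all 3 ARID1B libraries as well, at log2 changes of 0.46 and 0.35 with adjusted p-values of 0.390 and 0.510 (limma, 0.34 and 0.18 without vector replicate 2). So did ENTPD3, which was under the minimum for the test, at 0.288, 0.0751 and 0.208 FPKM with ARID1B and 0.0132, 0.0205 and 0.00836 FPKM with the vector. SLC29A3, a nucleoside transporter of lysosomes, was at 1.06, 0.811 and 0.93 FPKM with ARID1B and at 1.32, 1.27 and 1.37 FPKM with the vector (log2 change -0.26, adjusted p = 0.390, limma, and -0.08 after the GC and length correction). DGUOK, the mitochondrial deoxyguanosine kinase, was at 12.9, 10.9 and 12.4 FPKM with ARID1B and at 13.5, 20.1 and 14.3 FPKM with the vector (log2 change -0.36, adjusted p = 0.522, limma, and -0.19 without vector replicate 2). Both lay below the vector libraries in all 3 ARID1B libraries. Of these 16 genes 3 were higher and 2 lower without overlap, 31.2% in all, beside 20.5% of all genes tested (9.44% higher and 11.1% lower).

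The absolute order of the members' levels is less certain than the comparisons of each gene with itself. The gene length behind each FPKM, recovered from the same steps as the reads, was 1.05 to 7.72 times the longest transcript in GENCODE v29, with a median of 2.60, so that levels of different enzymes are scaled by unequal amounts. With 112 to 65737 reads for the tested members, the 95% counting error of the lowest library was between 1.41% and 18.5% of its value (median 4.83%), while the highest library exceeded the lowest by a median of 1.69-fold. Counting error covers the sampling of reads only.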

How the data were processed

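RNA from 6 libraries of IMR90 cells was sequenced after a stranded mRNA preparation. The table that the authors deposited gives FPKM for 57232 genes. Genome build hg19 and the tools HTSeq 0.5.3p9, TopHat2 2.0.11 and DESeq2 appear in the submitters' processing notes, with no role given for any of them. Groups and replicate numbers came from the sample labels.

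FPKM were tested with limma 3.58.1 (R 4.3.3, variance trend) on log2(FPKM + 1), for the 10416 genes that averaged 1 FPKM or more, and p-values were adjusted by the Benjamini-Hochberg method and called under 0.05. This scale understates changes of low genes. Whole reads were recovered from the FPKM steps, and 100.0% of the genes tested were whole within 0.002 reads. If all 6 read numbers of a gene have a common factor, its recovered reads and length are too small by it. With 3 against 3 libraries an exact test on 1 gene cannot go below a two-sided p of 0.1, so none was run. The fit was tested on simulated data.

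The members, the other gene lists and the tests were chosen with earlier results of these data known. Values in each library were given for all de novo enzymes, the main deoxynucleotide enzymes, the highest and lowest of each branch, UPP1, TYMP, DPYD, NT5E, NME1 and NME2, members at an unadjusted p under 0.05 or called without vector replicate 2, members whose groups did not overlap, and, beyond that rule, the other members where they had reads. Alternatives were a smaller pseudocount (0.1), testing every gene above 0, testing genes that averaged 5 FPKM or more, quantile and median-ratio scaling, limma without the trend, a replicate block, each library or both libraries numbered 3 left out, a GC and length correction (natural splines, 5 degrees of freedom, 97.9% of genes matched) and voom on recovered reads. The replicate numbers did not pair the libraries. Promoters were from RefSeq (GRCh38.p14). Tables and plots used Python 3.11.15, pandas 2.3.3, scipy 1.17.1 and matplotlib 3.10.9.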

Additional observations from a re-analysis of the deposited data

How the results depend on the processing

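No member passed the threshold under any alternative except without vector replicate 2, where UPP1 did (log2 change 0.53), so members past the threshold, higher with ARID1B, ranged from 0 to 1 as single libraries were left out. Over all genes the count higher with ARID1B was 3, against 0 with no filter, 0 without both libraries numbered 3, 5 after the GC and length correction, 1 with voom and 0 to 125 with a library left out, and the count lower ranged from 0 to 199. Same-numbered libraries did not deviate together (correlations of -0.461, -0.431 and -0.171), and with the replicate block 0 genes and 0 members passed. Members whose groups did not overlap ranged from 1 to 6 higher and from 2 to 4 lower with a library left out. The 6 higher were those without vector replicate 2, beside 18.8% of all genes tested, and the 3 lower there were beside 23.9%. For the other libraries left out the share over all genes was not computed, so those counts are no result about the members. At a mean of at least 5 FPKM 1 member was lower, and the median of the breakdown branch was 0.25. The median of the de novo branch was 0.07 without vector replicate 2 (-0.22 to 0.07 as single libraries were left out).

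The sign of the log2 change turned in 11 of 30 members with a library left out: UMPS -0.27 to 0.13, CTPS1 -0.36 to 0.38, RRM1 -0.24 to 0.36, DUT -0.09 to 0.05, DTYMK -0.47 to 0.26, TK1 -0.51 to 0.31, TK2 -0.07 to 0.07, UPRT -0.09 to 0.02, CDA -0.07 to 0.20, NME1 -0.50 to 0.26 and NT5C3A -0.04 to 0.10. After the GC and length correction it turned in 10 members, RRM1 (-0.06), DTYMK (0.10), DCTD (0.04), TK1 (0.13), UCK1 (0.04), UCKL1 (0.06), NME3 (0.18), NME4 (0.07), NT5C (0.01) and NT5C3A (-0.05), and without both libraries numbered 3 in RRM1 (-0.13) and NT5C3A (-0.03). The cause was not tested. Under the other scalings, pseudocount, filters, trend and voom no member turned. With 3 libraries a group, or fewer if the third are mixtures, the intervals of 7 members reached beyond a 2-fold change of FPKM + 1. Low members among the others could also have changed more than 2-fold in FPKM itself.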
